A study of Mus musculus with 31 samples.

Results

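Within the colon of mice that kept TAK1, RNA sequencing libraries divided into 2 sets by the clock-controlled transcription factor gene Dbp, and genes of the circadian clock and of cell division were among those that differed with it. The series holds 31 colon libraries taken 7 days post induction. The 10 HO libraries came from mice labelled TAK1 IEC-KO and Ripk1 D138N/D138N, the 10 DHO libraries from mice that carried in addition Tradd IEC-KO, and the 11 WT libraries from Tak1f/f mice, again on Ripk1 D138N/D138N. All 3 groups therefore share a form of RIPK1 without kinase activity, so the WT libraries are not those of unmodified mice. TAK1 is a kinase that activates NF-kB signalling, TRADD is an adaptor of the TNF receptor, and IEC stands for intestinal epithelial cells, whereas the RNA came from whole colon. The sources used here give neither the Cre driver, the inducing agent nor the age of the mice, nor the hour of tissue collection, and the labels do not say whether each library is a separate mouse.

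The 11 WT libraries, of the 31 in all, were chosen by genotype, and their 2 sets were selected on the measured Dbp level alone. The 7 libraries above 50 FPKM (fragments scaled by gene length and by library total) are called Dbp-high and are WT replicates 4, 5, 6, 8, 9, 10 and 11. The 4 libraries below 3 FPKM are called Dbp-low and are WT replicates 1, 2, 3 and 7. Since measured values made the sets, each difference of a gene between them is given below as a description with no test. Without an hour of collection the sets are named by their Dbp level and not by a clock phase.

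The circadian clock is a feedback loop of transcription found in most cells, colon epithelium included. BMAL1, the product of Arntl, pairs with CLOCK or NPAS2 on E-box sequences and drives the Per, Cry, Nr1d and Dbp genes. PER and CRY proteins then inhibit that pair, while REV-ERB proteins, encoded by Nr1d1 and Nr1d2, repress Arntl, Npas2 and Nfil3 through ROR elements. DBP, TEF and HLF are related activators that bind D-boxes, where NFIL3 acts as a repressor, and this arm carries the rhythm to output genes.

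These 3 kinds of sequence were searched for on both strands in the 250 bases before each transcript start of a table of RefSeq promoters on GRCm38.p6. The table holds more than 1 start for some genes, and a gene counts as matched when any of its starts does. The stretches below are from clock genes that differed between the sets, with the matched letters of the element named for each gene in capitals. For Tef, 2 starts are given. The Per1 and Nfil3 stretches and the second of Tef lie inside the span of the gene, before a start further in, and 3 bases of the Ciart stretch do. The E-box CACGTG was matched in Ciart, Tef and Per1, and the D-box TTATGTAA in Per3. The ROR element TAGGTCA was matched in Nfil3, on the opposite strand, where it reads TGACCTA. The mitotic gene Cdc20 is added, chosen after its values were seen, for CCAAT and for TTTGAA, the core of the CHR element of cell cycle promoters.
Ciart, chr3:95882255-95882356, minus strand: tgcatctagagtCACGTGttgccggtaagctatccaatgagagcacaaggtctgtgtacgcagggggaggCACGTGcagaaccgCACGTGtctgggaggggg
Tef, chr15:81802534-81802563, plus strand: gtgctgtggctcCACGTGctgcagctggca
Tef, chr15:81811264-81811293, plus strand: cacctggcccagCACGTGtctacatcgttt
Per1, chr11:69098771-69098800, plus strand: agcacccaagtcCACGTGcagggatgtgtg
Per3, chr4:151044804-151044882, minus strand: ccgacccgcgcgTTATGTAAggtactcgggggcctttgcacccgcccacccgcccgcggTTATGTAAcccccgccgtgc
Nfil3, chr13:52981040-52981063, minus strand: ggcgctcggaacTGACCTActaac
Cdc20, chr4:118437344-118437408, minus strand: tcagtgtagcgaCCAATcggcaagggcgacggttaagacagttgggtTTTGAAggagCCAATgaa

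Dbp (chromosome 7, 45705100 to 45710203, GRCm38.p6) chose the sets. It had 71.6, 87.9, 84.3, 57.7, 58.8, 51.4 and 66.3 FPKM in Dbp-high WT replicates 4, 5, 6, 8, 9, 10 and 11, and 1.51, 2.20, 1.28 and 1.08 FPKM in Dbp-low WT replicates 1, 2, 3 and 7. The means were 68.3 ± 13.8 FPKM (SD, n = 7) in the Dbp-high libraries and 1.52 ± 0.489 FPKM (SD, n = 4) in the Dbp-low libraries. The libraries nearest to the thresholds were WT replicate 10 at 51.4 FPKM on the high side and WT replicate 2 at 2.20 FPKM on the low side, and no WT library lay between them.

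Depth and a second division of the libraries were examined beside the Dbp sets. The FPKM values implied 37600000 ± 2250000 fragments in the Dbp-high libraries and 37600000 ± 2930000 in the Dbp-low libraries (SD, n = 7 and 4; exact permutation test, two-sided p = 0.976), within a range of 30800000 to 40400000 over all 31 libraries. The noncoding RNA Gm15564 splits the libraries of each genotype in a way that the labels do not name, with division 1 below 1 FPKM and division 2 above it. In WT the divisions follow the order of listing, replicates 1 to 6 and 7 to 11. Depth ran with them there, at 38600000 to 39900000 fragments in division 1 and 33300000 to 38200000 in division 2, and was not tested against the division. The Dbp-high set holds 3 libraries of division 1 and 4 of division 2, and the Dbp-low set holds 3 of division 1 and 1 of division 2, WT replicate 7 (Fisher's exact test, two-sided p = 0.545). With 7 and 4 libraries, neither test can show that the sets are alike in depth or in division. In a principal component analysis of the WT libraries, the first component (46.5% of the variance) separated the divisions. The second (18.1%) placed the Dbp-high libraries between -23.1 and 4.1 and the Dbp-low libraries between 10.8 and 23.1. Within the Dbp-high set, Dbp itself was at 71.6 to 87.9 FPKM in division 1 and at 51.4 to 66.3 FPKM in division 2, so its order inside that set follows the division and no correlation with it is given.

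A gene is called apart below when all 7 Dbp-high libraries lay on one side of all 4 Dbp-low libraries and the means differed by at least 1 on the scale of log2(FPKM + 0.5), Dbp-high minus Dbp-low. Of 12338 genes that reached 1 FPKM in 4 or more WT libraries, 84 were apart (0.681%). Of these, 30 were higher (0.243%) and 54 were lower (0.438%) in the Dbp-high libraries. Without the limit on size, 554 genes did not overlap between the sets (4.49%), 173 of them above (1.4%) and 381 below (3.09%). The median difference over all described genes was -0.05. When the difference was taken with the library division as a term, 105 genes were apart, of which 70 were among the 84. Without WT replicate 1, 147 genes were apart, 113 of them lower. Without WT replicate 7, 88 were lower.

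The clock lists stood out in this count by the size of their differences. Of 31 listed clock genes 27 passed the filter, and 13 of these were apart (0.681% of all described genes), 10 higher and 3 lower. Arntl2, Rora, Rorb and Fbxl21 were below the filter. Because Dbp set the contrast and its partners were known to vary with it, this count describes the libraries and supports nothing beyond them.

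The activators that bind D-boxes were all high with Dbp. Tef (chromosome 15, 81802673 to 81826863) had 17.6, 22.2 and 28.97 FPKM as the lowest, median and highest Dbp-high values, against 2.14, 2.68, 1.62 and 2.02 FPKM in Dbp-low WT replicates 1, 2, 3 and 7, a difference of 3.11 (log2). Hlf had 2.35, 2.95 and 3.88 FPKM in the Dbp-high libraries, against 0.423, 0.599, 0.379 and 0.399 FPKM in the Dbp-low libraries. Neither gene overlapped between the sets, and the whole family of Dbp, Tef and Hlf was high in the same 7 libraries. Nfil3 (chromosome 13, 52967209 to 52982878), the repressor at the same sites, ran the other way. It had 0.270, 0.350 and 1.31 FPKM as the lowest, median and highest Dbp-high values, against 2.53, 2.06, 2.99 and 1.55 FPKM in the Dbp-low libraries, a difference of -1.54. WT replicate 4 held the Dbp-high maximum, and its distance to the lowest Dbp-low value, 1.55 FPKM in WT replicate 7, was small.

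Repressors of the PER and CRY arm did not all lie on one side. Per2 had 6.68, 7.84 and 10.04 FPKM as the lowest, median and highest Dbp-high values, against 1.96, 1.41, 1.61 and 1.71 FPKM in the Dbp-low libraries, a difference of 1.99. Per3 had 5.18, 6.08 and 7.50 FPKM in the Dbp-high libraries, against 1.88, 1.75, 1.44 and 1.59 FPKM in the Dbp-low libraries, a difference of 1.59. Per1 had 4.80, 5.92 and 9.52 FPKM in the Dbp-high libraries, against 3.12, 2.68, 2.39 and 2.50 FPKM in the Dbp-low libraries, a difference of 1.17. All 3 Per genes thus separated the sets, Per1 with the narrowest gap. Ciart, the gene of the repressor CHRONO, had 4.86, 7.40 and 10.3 FPKM in the Dbp-high libraries and lay at or below 0.220 FPKM in all 4 Dbp-low libraries, a difference of 3.65 that the added 0.5 FPKM makes smaller than the change in level. Cry1 lay on the opposite side, with 2.21, 3.27 and 3.87 FPKM in the Dbp-high libraries against 5.94, 5.58, 6.15 and 5.42 FPKM in the Dbp-low libraries. Its sets did not overlap, but its difference of -0.80 was under the limit of size. Cry2 had a difference of 1.12 and overlapped, with 4.13 to 12.5 FPKM in the Dbp-high libraries against 2.61 to 4.84 FPKM in the Dbp-low libraries. Bhlhe40 (0.74) and Bhlhe41 (0.98), the DEC repressors that compete for E-boxes, lay wholly above in the Dbp-high libraries and under the limit.

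REV-ERB genes were high with Dbp. Nr1d1 had 54.8, 67.3 and 83.8 FPKM as the lowest, median and highest Dbp-high values, against 19.01, 26.5, 18.7 and 26.9 FPKM in the Dbp-low libraries, a difference of 1.59. Nr1d2 had 18.5, 28.3 and 33.5 FPKM in the Dbp-high libraries, against 5.18, 6.40, 5.54 and 10.3 FPKM in the Dbp-low libraries, a difference of 1.85. Both genes separated the sets.

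Of the activator pair, the BMAL1 and NPAS2 genes were low with high Dbp. Arntl (chromosome 7, 113178471 to 113314126) had 0.723, 0.962 and 1.59 FPKM as the lowest, median and highest Dbp-high values, against 3.88, 4.11, 3.74 and 4.25 FPKM in the Dbp-low libraries, a difference of -1.52. Npas2 had 2.86, 3.89 and 5.81 FPKM in the Dbp-high libraries, against 10.2, 10.5, 10.6 and 13.2 FPKM in the Dbp-low libraries, a difference of -1.33. Neither overlapped between the sets. Clock, their partner and relative, did overlap, at 9.08 to 14.2 FPKM in the Dbp-high libraries and 10.1 to 21.6 FPKM in the Dbp-low libraries. The highest Clock value was that of WT replicate 7, and without that library its difference was 0.01 in place of -0.23.

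**Figure D1:**
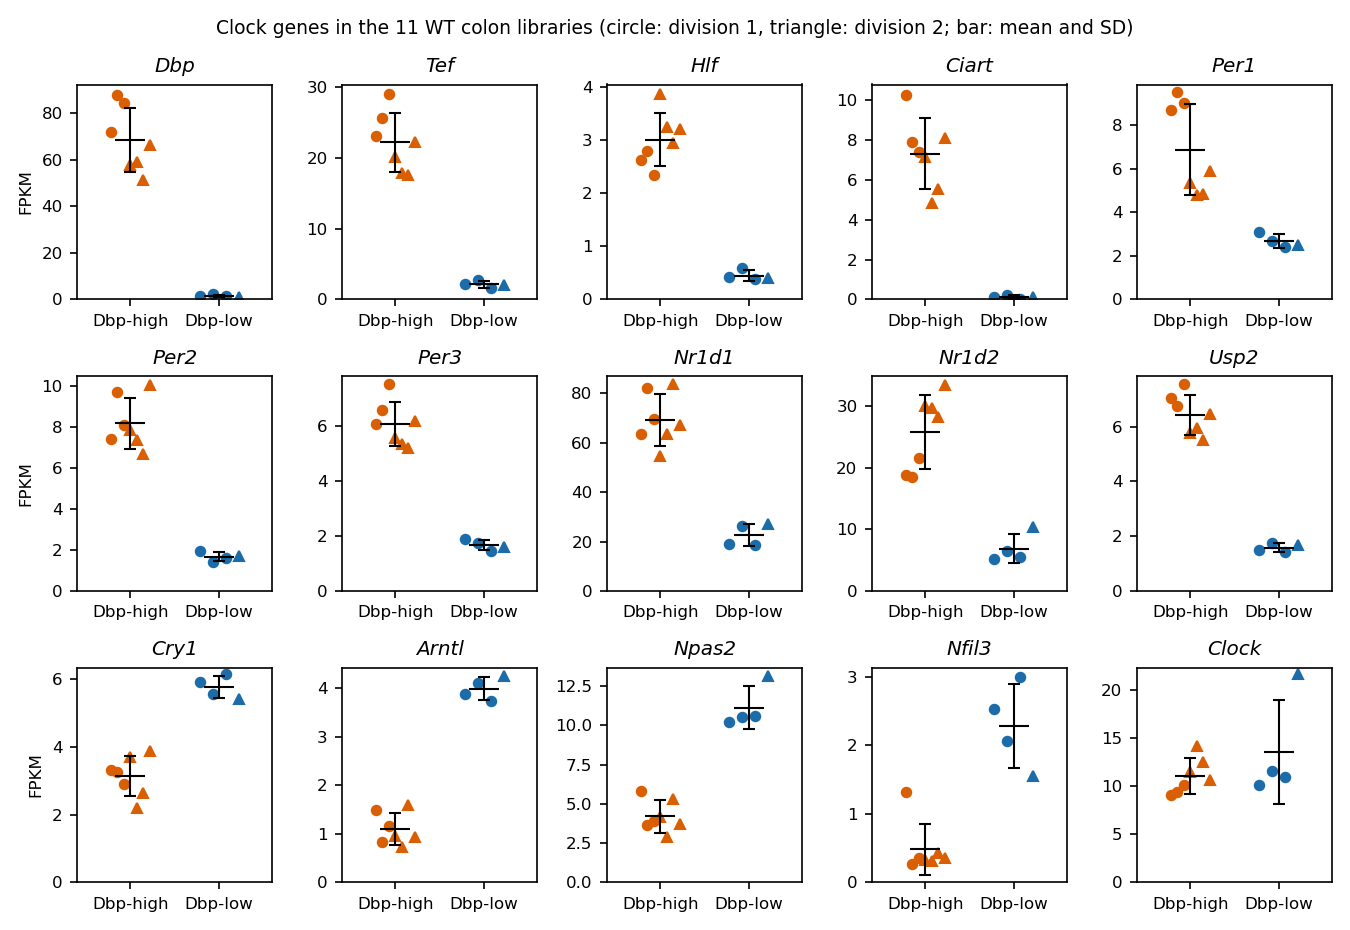
FPKM of 15 clock genes in each WT library, Dbp-high libraries at the left of each panel and Dbp-low libraries at the right, with the mean and SD as a bar and the library division as the marker shape. Tef, for example, lies between 17.6 and 28.97 FPKM in the Dbp-high set and between 1.62 and 2.68 FPKM in the Dbp-low set, while the Clock values of the sets overlap.

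The kinases, ligases and partners of the clock proteins mostly overlapped. Among 9 described members only Usp2, a ubiquitin protease that acts on clock proteins, was apart. It had 5.52, 6.47 and 7.54 FPKM as the lowest, median and highest Dbp-high values, against 1.49, 1.75, 1.41 and 1.68 FPKM in the Dbp-low libraries, a difference of 1.73. Cipc, an inhibitor of CLOCK, lay above without overlap at 15.9 to 21.6 FPKM in the Dbp-high libraries against 9.30 to 11.4 FPKM in the Dbp-low libraries, a difference of 0.84. Timeless, a gene of replication fork protection related to a fly clock gene, lay below, by -0.49. The kinase genes Csnk1d, Csnk1e and Gsk3b and the ligase genes Fbxw11 and Btrc overlapped, with differences between -0.13 and 0.18.

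The rule that chose the 13 apart clock genes fixes their side inside each library division, so only the sizes are given. The Tef difference was 3.33 in division 1 and 2.98 in division 2, that of Arntl was -1.42 and -1.64, and that of Per1, the least even, was 1.57 and 0.93. Division 2 rests on the single Dbp-low library WT replicate 7. With quantile normalization 10 clock genes were apart and higher and 3 lower, and with median ratio scaling 11 and 3.

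**Figure D2:**
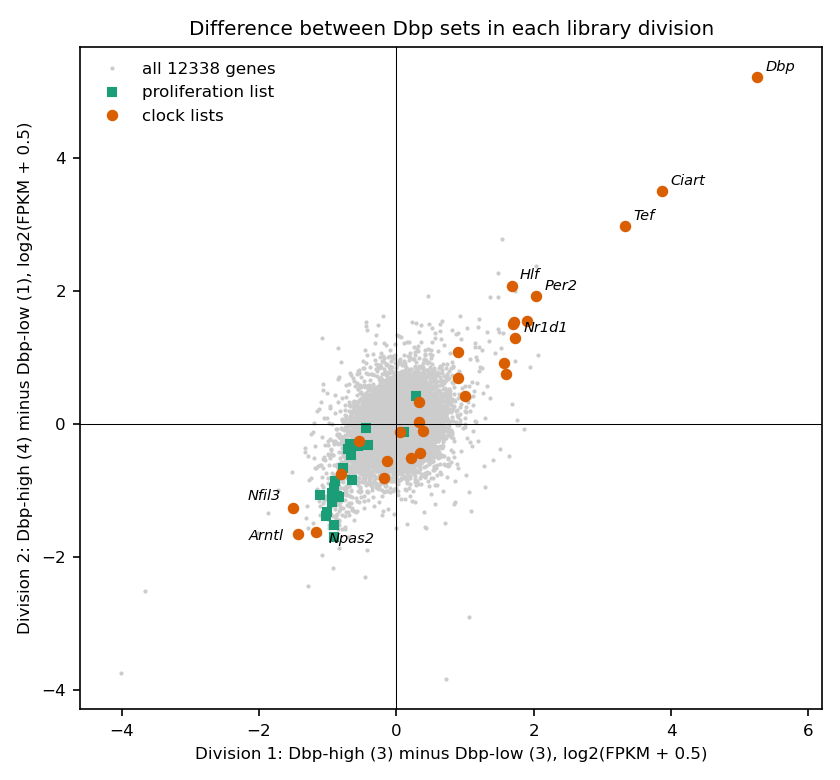
Difference of mean log2(FPKM + 0.5), Dbp-high minus Dbp-low, in division 1 (horizontal axis, 3 against 3 libraries) and division 2 (vertical axis, 4 against 1) for 12338 genes, with the clock and proliferation lists marked. Dbp, Ciart and Tef lie far above 0 on both axes, and most proliferation genes lie below 0 on both.

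A list of 23 widely repeated clock outputs behaved less evenly. Of its 21 described members, 4 were apart, 2 higher and 2 lower (0.243% and 0.438% of all described genes). Coq10b, which encodes a coenzyme Q binding protein, had a difference of 1.29 and Tspan4, of the tetraspanin family, of 1.27. Lonrf3, a ring finger gene, had -1.04 and Ypel2, of the Yippee family, -1.02. The median difference of the list was 0.23 against -0.05 for all genes, and the remaining 17 members, among them Wee1, Por and Klf9, were not apart.

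Genes of cell division lay lower with high Dbp. In the proliferation list, 7 of 23 genes were apart and lower, 14 of 23 lay wholly below in the Dbp-high libraries, and 21 of 23 differences were negative, with a median of -0.95 against -0.05 for all genes. Background shares were 0.438% for apart and lower and 3.09% for wholly below, and 7127 of all 12338 described genes had a negative difference. Ccnb1, the gene of cyclin B1, which starts mitosis with CDK1, had 6.43, 8.86 and 9.83 FPKM as the lowest, median and highest Dbp-high values, against 13.5, 21.9, 24.7 and 20.3 FPKM in Dbp-low WT replicates 1, 2, 3 and 7. Plk1, a kinase of spindle assembly, had 5.88, 8.72 and 12.4 FPKM in the Dbp-high libraries, against 14.3, 25.5, 25.5 and 15.3 FPKM in the Dbp-low libraries. Top2a, the topoisomerase that untangles replicated chromosomes, had 12.1, 16.2 and 18.4 FPKM in the Dbp-high libraries, against 21.1, 38.9, 34.9 and 49.8 FPKM in the Dbp-low libraries. In all 3 genes the sets did not overlap, the differences were -1.20, -1.13 and -1.13, and WT replicate 1 was the lowest of the Dbp-low libraries.

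A split of this list, made after its values were seen, showed where the members lay. The 11 genes of G2 and mitosis had a median difference of -1.001, with a range of -1.20 to -0.95, and 9 of them lay wholly below in the Dbp-high libraries. The 12 genes of replication and G1 had a median of -0.59, with a range of -1.10 to 0.12, and 5 lay wholly below. Of these, only Rrm2, which encodes a subunit of ribonucleotide reductase, was apart, while Ccnd1 (0.02) and Ccne1 (0.12), the cyclins of G1 and of S phase entry, were near 0. The G2 and mitosis median was -0.91 in division 1 and -1.13 in division 2, and that of replication and G1 was -0.65 and -0.34. The count of 7 depends on single libraries, being 12 without WT replicate 1, 3 without replicate 2, 4 without replicate 3 and 4 without replicate 11. It was 4 with quantile normalization and 4 with median ratio scaling, where 21 of 23 differences were negative as well.

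**Figure D3:**
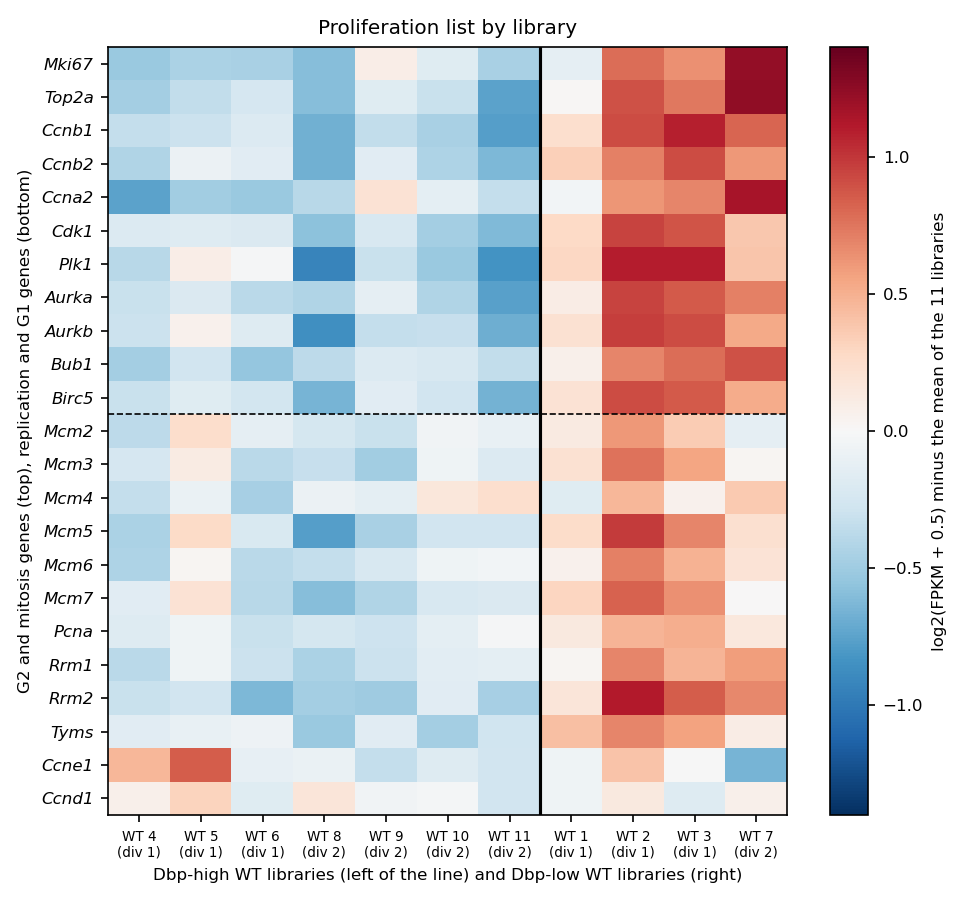
Proliferation list by library, as log2(FPKM + 0.5) less the mean of the 11 WT libraries, with Dbp-high libraries left of the solid line, Dbp-low libraries right of it, and G2 and mitosis genes above the dashed line. Blue is below and red above the mean. WT replicates 2, 3 and 7 are the reddest for G2 and mitosis genes, replicate 1 lies between them and the Dbp-high libraries, and Ccnd1 at the bottom shows little difference (0.02).

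More genes of the spindle, kinetochore and mitotic exit among the 54 lower ones are named here after their values were seen. Aurka, Aurkb and Ccnb2 belong to the proliferation list and are already in its count of apart genes. Outside that list were Cdc20, Cdca8, Cenpa, Kif20a, Kif2c, Kif4, Nek2, Tpx2, Ttk and Ube2c. By the naming rule, Ndc80, a kinetochore gene, had 2.09, 3.23 and 3.41 FPKM as the lowest, median and highest Dbp-high values, against 6.78, 8.82, 9.25 and 9.12 FPKM in the Dbp-low libraries. E2f2, an E2F transcription factor of the cell cycle, had 1.32, 2.01 and 2.61 FPKM in the Dbp-high libraries, against 4.98, 7.83, 6.15 and 5.82 FPKM in the Dbp-low libraries. Neither overlapped, with differences of -1.32 and -1.47.

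Markers of cell types were set beside the cell cycle genes, because fewer cells of a type and less RNA per cell cannot be told apart in whole tissue. None of the 14 epithelial markers was apart, and their median difference was 0.02. Of the 14, Krt20 (0.55) lay wholly above, at 280 to 362 FPKM in the Dbp-high libraries against 209 to 235 FPKM in the Dbp-low libraries. The summed level of the 14 was 8647 to 10504 FPKM in the Dbp-high libraries and 8280 to 11026 FPKM in the Dbp-low libraries. Epithelium was thus present in both sets at overlapping levels, with none of these 14 genes at 0 in any WT library. Markers of stem cells and crypt base, which do not mark all dividing cells, summed to 91.1 to 121 FPKM in the Dbp-high libraries and 90.6 to 118 FPKM in the Dbp-low libraries. Olfm4 was the single member of that list at 0 in some library, and no member was apart. B cell markers were lower in mean in 11 of 11 described members, with a median difference of -0.62. Their summed level overlapped, at 7.30 to 64.8 FPKM in the Dbp-high libraries and 34.2 to 109 FPKM in the Dbp-low libraries, none was apart, and none was at 0. T cell markers were lower in 5 of 5 described of 14 listed, with a median of -0.49, and summed to 7.66 to 14.7 FPKM in the Dbp-high libraries and 9.58 to 23.2 FPKM in the Dbp-low libraries. Plasma cell markers were lower in 6 of 7, with a median of -0.42, and summed to 201 to 557 FPKM in the Dbp-high libraries and 310 to 430.4 FPKM in the Dbp-low libraries. Neutrophil markers were lower in 3 of 4 described of 11 listed, with a median of -0.60. The sum over the list was 217 to 339 FPKM in the Dbp-high libraries and 153 to 226 FPKM in the Dbp-low libraries. In no WT library did S100a8 exceed 5.51 FPKM or S100a9 exceed 4.99 FPKM, so most of that sum came from other members. Goblet cell markers were lower in 10 of 10, with a median of -0.32, and summed to 5002 to 7440 FPKM in the Dbp-high libraries and 6680 to 9961 FPKM in the Dbp-low libraries. Of these, Agr2 (-0.62) lay wholly below, at 842 to 1209 FPKM in the Dbp-high libraries against 1274 to 1898 FPKM in the Dbp-low libraries. Over all described genes, 1.4% lay wholly above and 3.09% wholly below. Of these 12338 genes, 7127 had a lower mean and 5211 a higher one, the background for the counts by list here. Smooth muscle markers were higher in 12 of 12, with a median of 0.38, and summed to 3949 to 10494 FPKM in the Dbp-high libraries and 3238 to 7630 FPKM in the Dbp-low libraries. The ranges of all these sums overlapped, and the part of these cell types in the cell cycle difference was not tested.

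Of the 12 largest higher genes, 3 are outside the clock lists: Ly6m, Tns4 and Sgk1. Ly6m, of the Ly6 family of surface proteins, had 34.6, 53.0 and 91.9 FPKM as the lowest, median and highest Dbp-high values, against 11.9, 18.4, 13.6 and 7.78 FPKM in the Dbp-low libraries. Tns4, a tensin of focal adhesions, had 52.6, 85.6 and 114 FPKM in the Dbp-high libraries, against 25.1, 28.3, 19.9 and 38.8 FPKM in the Dbp-low libraries. Sgk1, a kinase induced by glucocorticoids that raises sodium channel activity, had 51.7, 62.8 and 77.8 FPKM in the Dbp-high libraries, against 27.99, 25.7, 18.5 and 17.1 FPKM in the Dbp-low libraries. None of the 3 overlapped, and their differences were 1.98, 1.70 and 1.53. Sgk1 was the single apart gene of 14 in the glucocorticoid list, whose median difference was 0.02.

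Of the 12 largest lower genes, the globins led. Hbb-bs, a beta globin gene, had 0.240, 0.471 and 2.89 FPKM as the lowest, median and highest Dbp-high values, against 8.96, 40.3, 14.9 and 16.1 FPKM in the Dbp-low libraries, a difference of -3.90. Hba-a1, an alpha globin gene whose reads cannot be told from those of Hba-a2 with certainty, had 0 to 1.66 FPKM in the Dbp-high libraries, against 4.62 to 25.3 FPKM in the Dbp-low libraries, a difference of -3.40. Both were lower in every Dbp-high library than in any Dbp-low one. Next came Cpm, a carboxypeptidase of the cell surface (-1.68), Tppp3, a tubulin binding protein (-1.63), Spon2, a secreted matrix protein (-1.47), Rnf125, a ubiquitin ligase (-1.44), H2-Q10, a class I histocompatibility gene with close paralogs (-1.36), and Eln, elastin (-1.30). Eln was at 4.77 to 20.5 FPKM in the Dbp-high libraries and at 21.6 to 47.3 FPKM in the Dbp-low libraries, a narrow gap.

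Further lists held few apart genes, where 0.243% of all described genes were apart and higher and 0.438% apart and lower, 1.4% lay wholly above and 3.09% wholly below. In the unfolded protein response list, Pdia6, a disulfide isomerase of the endoplasmic reticulum, was apart at 49.7, 60.2 and 72.0 FPKM in the Dbp-high libraries, against 135, 129, 148 and 99.7 FPKM in the Dbp-low libraries. In all, 6 of its 13 described members lay wholly below, the chaperone genes Hspa5 (-0.74) and Hyou1 (-0.66) among them, and the list median was -0.48. Fos, the one apart gene of 11 immediate early genes, had 15.6, 29.1 and 55.6 FPKM in the Dbp-high libraries, against 59.7, 81.1, 68.7 and 61.9 FPKM in the Dbp-low libraries. Its sets lay close together, and the list median was -0.26. Scd1, the fatty acid desaturase, was apart at 10.3 to 20.9 FPKM in the Dbp-high libraries against 24.2 to 42.1 FPKM in the Dbp-low libraries, with Scd2 (-0.66) also wholly below. No gene was apart among 20 colonocyte transporters, 20 xenobiotic genes and 17 genes of fatty acid oxidation. Their medians were 0.36, 0.25 and 0.13, and 3, 2 and 2 members lay wholly above. Slc9a2, a sodium and proton exchanger (0.57), and Car2, a carbonic anhydrase (0.69), were 2 of these, as was Abcb1a, the efflux pump gene, at 107 to 165 FPKM in the Dbp-high libraries against 67.0 to 90.7 FPKM in the Dbp-low libraries. Hsph1, a heat shock protein gene, lay wholly below at 4.97 to 10.7 FPKM in the Dbp-high libraries against at least 11.5 FPKM in the Dbp-low libraries. In its list of 14 heat shock and temperature genes none was apart, 3 lay wholly below, and the median was -0.07. Of the 14 differences 9 were negative and 5 positive, among them Rbm3 (0.81), whose sets overlapped.

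The promoter letters shown at the start were counted over these sets. CACGTG was matched in 9 of 25 apart and higher genes with a promoter (36.0%) and in 3 of 41 lower ones (7.32%), against 986 of 9883 described genes with a promoter (9.98%). Among the 9 higher clock genes with a promoter it was matched in 3, Per1, Ciart and Tef. Ciart held 3 such matches between 116 and 44 bases before its start. TTATGTAA was matched in Per3 and Coq10b, 2 of the 25 higher genes (8.0%), in none of the 41 lower ones, and in 58 of 9883 described genes (0.587%). TAGGTCA was matched in 2 of the 41 lower genes (4.88%), of which Nfil3 is a clock gene, in none of the 25 higher ones, and in 2.08% of described genes. CCAAT was matched in 30 of the 41 lower genes (73.2%) and 13 of the 25 higher ones (52.0%), against 40.1% of described genes. TTTGAA was matched in 7 of the 41 lower genes (17.1%) and 3 of the 25 higher ones, against 12.9% of described genes. The Cdc20 stretch held both. No 2 of the motifs overlap in the stretches shown. A match describes letters in this window and is not a bound site, and no test of these shares was made.

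The HO and DHO libraries, which did not enter the division, were low in Dbp. Dbp was at 0.905 to 4.21 FPKM in HO and 0.355 to 2.87 FPKM in DHO. No HO or DHO library was above 50 FPKM, and 17 of the 20, 7 HO and 10 DHO, were below 3 FPKM. The Dbp-high libraries of WT thus have no counterpart in the other genotypes. Markers of cell types differed widely beside these levels. The 14 epithelial markers summed to 14.9 to 8485 FPKM in HO (median 169) and 5599 to 12090 FPKM in DHO, against 8647 to 10504 FPKM in Dbp-high WT and 8280 to 11026 FPKM in Dbp-low WT. In HO the median of each of the 14 was below that of the Dbp-low WT libraries, with Cdx1 and Cdx2 at 0 in some libraries. The neutrophil list summed to 6898 to 54672 FPKM in HO and 247 to 4865 FPKM in DHO, against 217 to 339 FPKM in Dbp-high WT and 153 to 226 FPKM in Dbp-low WT. Most HO libraries thus held little epithelial RNA and much RNA of neutrophil genes, and the part of this in the HO levels of the clock and cell cycle genes was not tested. With Dbp low in both, several clock genes stood elsewhere in HO than in the Dbp-low WT libraries. Arntl was at 0.732 to 1.25 FPKM in HO and 1.77 to 4.19 FPKM in DHO, against 0.723 to 1.59 FPKM in Dbp-high WT and 3.74 to 4.25 FPKM in Dbp-low WT. Nfil3 was at 19.02 to 39.9 FPKM in HO and 1.69 to 17.2 FPKM in DHO, against 0.270 to 1.31 FPKM in Dbp-high WT and 1.55 to 2.99 FPKM in Dbp-low WT. HO libraries thus held low Dbp with low Arntl and high Nfil3, a combination that no WT library showed, in tissue that differed from WT in these markers. Per1 was at 6.59 to 10.96 FPKM in HO and 2.03 to 6.59 FPKM in DHO, against 4.80 to 9.52 FPKM in Dbp-high WT and 2.39 to 3.12 FPKM in Dbp-low WT. Per3 was at 0.232 to 0.963 FPKM in HO and 0.0619 to 1.87 FPKM in DHO, against 5.18 to 7.50 FPKM in Dbp-high WT and 1.44 to 1.88 FPKM in Dbp-low WT. In these 4 genes the DHO range overlapped that of the Dbp-low WT libraries, and for Per1 also that of the Dbp-high ones. The overlap was partial, as the DHO median of Arntl, 3.19 FPKM, lay below the Dbp-low WT range. Ccnb1 was at 0.841 to 14.9 FPKM in HO and 14.1 to 37.1 FPKM in DHO, so that the DHO libraries overlapped the Dbp-low WT libraries (13.5 to 24.7 FPKM) and lay wholly above the Dbp-high ones (6.43 to 9.83 FPKM). These genotype levels are given as they stand, with no test between genotypes.

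**Figure D4:**
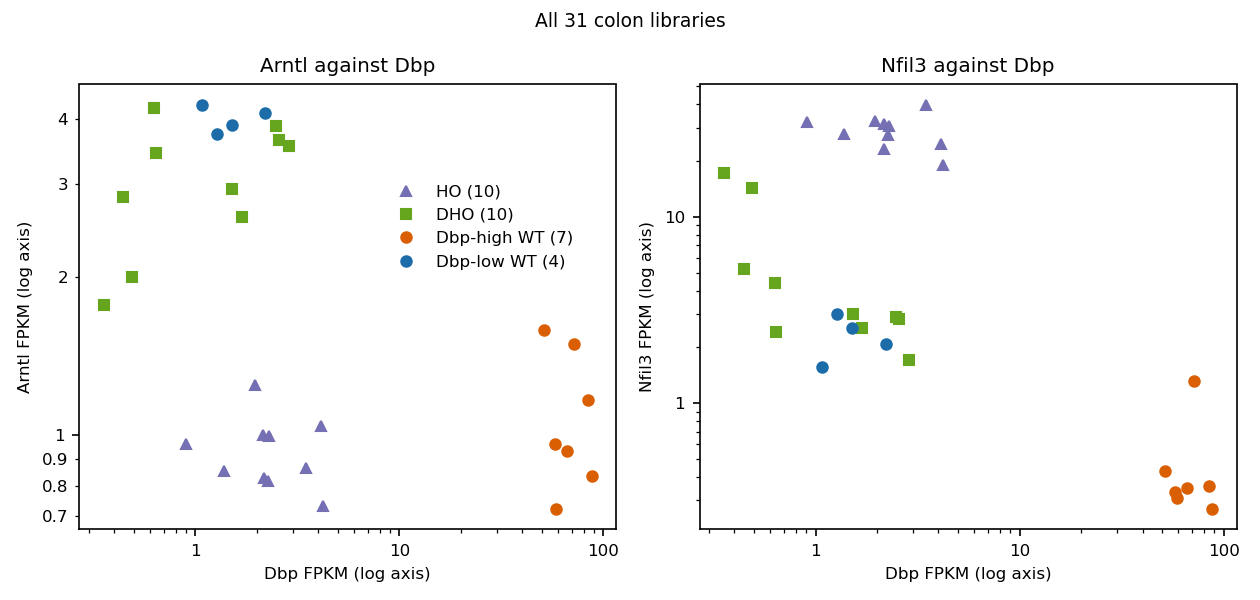
Arntl (left) and Nfil3 (right) against Dbp in all 31 libraries, in FPKM on log axes, by genotype and, for WT, by Dbp set. HO libraries lie at low Dbp with Arntl at 0.732 to 1.25 FPKM and Nfil3 at 19.02 to 39.9 FPKM, away from both WT sets.

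Whether genes followed Dbp in libraries that had not made the sets was tested in the 20 HO and DHO libraries, with a slope of log2(FPKM + 0.5) on log2(Dbp + 0.5), the genotype as a term, in limma with Benjamini-Hochberg adjustment. Of 12105 genes, 4253 had a slope with adjusted p under 0.05 (35.1%), 2622 positive (21.7%) and 1631 negative (13.5%). The split was 2044 and 2373 with quantile normalization and 2156 and 2212 with median ratio scaling. With the library division as a further term, 4 genes passed (0.033%), all positive, and 1338 had an unadjusted p under 0.05. Among the DHO libraries Dbp was at 0.630 to 2.87 FPKM in division 1 and 0.355 to 0.640 FPKM in division 2. Dbp and the division therefore run together there, and most of the slopes cannot be told apart from it. With a score of the epithelial markers as a term in place of the division, 4394 genes passed. Without DHO replicate 8, 2216 genes passed.

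Of 23 clock genes tested, 10 passed with genotype alone, a share to be read against 35.1%. Tef had a slope of 0.74 (SE 0.09, limma adjusted p = 0.00032), Nr1d1 of 1.08 (SE 0.18, adjusted p = 0.0032) and Per3 of 0.69 (SE 0.12, adjusted p = 0.0035). No HO library reached 1 FPKM of Per3, so that gene met the filter through DHO alone. Its slope in DHO alone was 0.80 (SE 0.17), where Dbp runs with the division. Per2 (0.33), Cry2 (0.49), Cipc (0.27) and Btrc (0.24) passed with positive slopes, and Nfil3 (-0.70) and Gsk3b (-0.29) with negative ones. Without HO replicate 2 and DHO replicates 8 and 9, only Tef, Nr1d1 and Per3 of the clock genes passed. Nfil3 was at 17.2 and 14.3 FPKM in DHO replicates 8 and 9, and its slope in HO alone was -0.18 (SE 0.17). Arntl (0.14, adjusted p = 0.23) and Npas2 (0.23, adjusted p = 0.13), which lay opposite to Dbp in the WT libraries, did not pass. With the division as a term, Tef (0.71, SE 0.11, limma adjusted p = 0.037) and Nr1d2 (0.64, SE 0.11, adjusted p = 0.037) were the clock genes that passed, beside Ppil6 and Gm15417, which are named as all that was left. The Nr1d1 and Per3 slopes were 1.11 and 0.65 in that fit, near their values without the term, with limma adjusted p = 0.28 and 0.41. In the HO libraries alone limma passed no gene (1248 had an unadjusted p under 0.05), and in the DHO libraries alone 2489 did. The test of the difference between the DHO and HO slopes passed no gene in limma (599 had an unadjusted p under 0.05).

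Of the 84 genes apart in WT, 79 were tested for this slope and 14 passed (background 35.1%), 12 of them with the sign of the WT difference. Coq10b (-0.45) and Tppp3 (0.997) passed with the other sign. The cell cycle genes did not pass: Ccnb1 had a slope of -0.12 (SE 0.28, limma adjusted p = 0.75), Plk1 of 0.06 (SE 0.29, adjusted p = 0.89) and Top2a of -0.32 (SE 0.25, adjusted p = 0.32). These misses do not show that the slopes are 0. The Dbp levels of HO and DHO reach only the lower end of the WT range. Some of them lie below its lowest value, 1.08 FPKM in WT replicate 7.

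**Figure D5:**
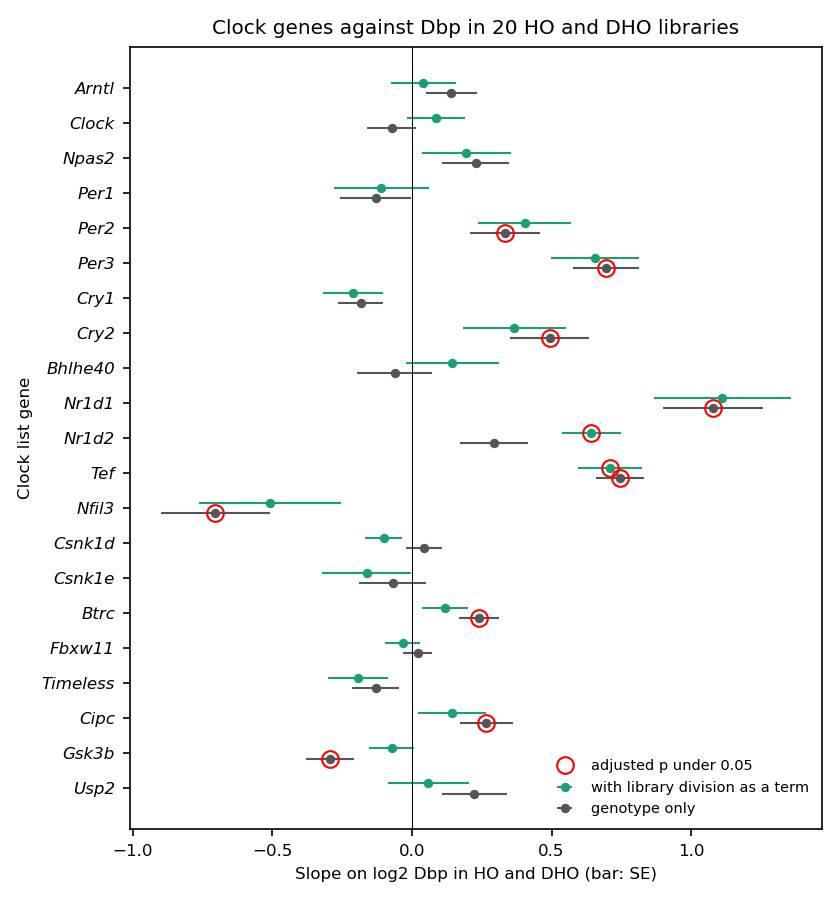
Slope on log2 Dbp, with its SE as a bar, for 21 of the clock genes in the 20 HO and DHO libraries, with the library division as a term (upper point of each pair) and with genotype only (lower point). Red rings mark a limma adjusted p under 0.05, which Tef has in both fits.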

How the data were processed

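The libraries were prepared from total RNA of mouse colon with a VAHTS Universal V6 kit, per the labels' protocols. The submitters' processing notes name fastp, HISAT2, HTSeq and the build mm10. For versions, annotation and strand setting the sources used here give nothing. The authors deposited FPKM values of 27623 genes in 31 libraries, with no counts. The steps of low FPKM values gave the fragments behind each library, and genes near 0 FPKM are the least precise. No pair of WT libraries was identical (highest correlation 0.992).

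Libraries were grouped by genotype, and replicates were numbered in the order of listing. The members, the gene lists and the tests were chosen with earlier results of these data known. WT differences were computed on log2(FPKM + 0.5) for genes that reached 1 FPKM in 4 or more WT libraries, with no test. Slopes on Dbp were fitted with limma 3.58.1 in R 4.3.3 (variance trend, robust), two-sided, over genes that also reached it in 5 or more HO or DHO libraries, and adjusted by Benjamini-Hochberg at 0.05. Both steps were tested on simulated data. Exact tests used SciPy 1.17.1. P-values measure the spread between libraries, which may be technical.

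The text names the clock list genes (2 of them count in the totals and are not reported here), the 12 largest higher and 12 largest lower apart genes with a mean of at least 2 FPKM, and up to 3 of each other list, leaving out Y-linked genes, Xist, pseudogenes, receptor segments and symbols without an established name. Genes outside this rule were chosen after their values were seen. Promoters came from RefSeq (GRCm38.p6) for 9883 of the 12338 described genes. Positions of genes came from RefSeq, in which 26637 symbols were found. Alternatives were other pseudocounts, filters, scalings, each division alone, limits of size, further terms and each library left out. The correlations with Dbp planned inside the Dbp-high set were not run, since its 7 libraries fall into separate sets of 3 and 4.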

Additional observations from a re-analysis of the deposited data

Results flagged for a closer look

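In 194 sets of values (a gene of the clock lists or of the naming rule in the Dbp-high or the Dbp-low libraries), 10 held a library far from the rest, and chance alone gives about 1 in 20. The Dbp-low set had 4 of these in WT replicate 7, its only library of division 2. Clock was at 21.6 FPKM there (other Dbp-low libraries 10.1 to 11.5), Gsk3b at 15.4 FPKM (6.25 to 7.06), Fbxw11 at 25.6 FPKM (19.9 to 20.8) and Npas2 at 13.2 FPKM (10.2 to 10.6). In the Dbp-high set, Nfil3 was at 1.31 FPKM in WT replicate 4 (others 0.270 to 0.434) and Bhlhe40 at 89.7 FPKM in the same library (44.4 to 63.2). WT replicate 5 had 12.8 FPKM of the crypt base gene Ascl2 (4.61 to 7.92) and 13.96 FPKM of the fat cell gene Cfd (0 to 1.14). Hoxa13 was at 25.8 FPKM in WT replicate 9 (16.5 to 20.5), and Ndc80 at 2.09 FPKM in WT replicate 11 (3.13 to 3.41).

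Among the same named genes, 4 had differences between Dbp-high and Dbp-low libraries of opposite signs in the library divisions, with no overlap in either. The share of such genes over all described genes was not computed. No overlap in division 2 means only that 4 libraries lay on one side of 1, which arises often without any difference. Whether the divisions differ was not tested. Csnk1d was at 0.39 in division 1 and -0.11 in division 2, Fbxw11 at 0.34 and -0.42, Gsk3b at 0.22 and -0.51, and the hormone gene Insl5 at -1.06 and 0.60. Division 2 rests on WT replicate 7 as its single Dbp-low library.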

How the results depend on the processing

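No difference of a named apart gene changed sign under any alternative. The rule for apart genes fixes this outcome for every alternative except quantile normalization and median ratio scaling. The WT total of 84 apart genes was 53 at a mean of at least 5 FPKM, 212 in division 2 alone, 308 at a limit of 0.5 and 554 with no limit. The 30 higher genes were 54 in division 1 alone, 83 in division 2 alone, 88 at 0.5 and 173 with no limit. The 54 lower genes were 87 with a pseudocount of 0.1, 32 at 5 FPKM, 129 in division 2 alone, 220 at 0.5 and 381 with no limit. The 13 clock genes were 7 at 5 FPKM. The 7 proliferation genes were 4 with a pseudocount of 1, with quantile normalization and with median ratio scaling, 3 in division 1 alone, 13 at 0.5 and 14 with no limit. With each WT library left out in turn, the total ran from 71 to 147, higher genes from 29 to 38, lower genes from 41 to 113, clock genes from 13 to 15 and proliferation genes from 3 to 12. The 4253 slopes were 4 with division as a term, 5 with division and epithelium score, 0 in HO alone, 2489 in DHO alone, 252 without HO replicate 2 and DHO replicates 8 and 9, and 457 against the mean of Tef and Per3 less that of Arntl and Npas2. The 10 clock slopes, of 23 clock genes tested, were 2, 2, 0, 5, 3 and 0 in these fits and 5 at 5 FPKM. Fewer clock genes were tested in HO alone (20) and at 5 FPKM (14). The fit against Tef, Per3, Arntl and Npas2 leaves those genes out and tested 19. With each HO or DHO library left out, slopes ran from 2216 to 5243 and clock slopes from 7 to 11. The cause of these moves was not tested, save that a limit of size or fewer genes acts by construction. No paired analysis was possible because replicate numbers follow the order of listing and pair no libraries. Depth is known only through FPKM steps, so counting error near 0 FPKM was not computed.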
